A study of Mus musculus with 6 samples.

Results

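The cells compared here are PB3 cells, a mouse mammary tumour cell line, taken after 1 round of eribulin (ERI1) or 1 round of paclitaxel (PAC1). They were found in the authors' table of cells by the deposited condition name, which gave 4793 of 51785 cells, 1865 from ERI1 and 2928 from PAC1. ERI1 cells had 500 nM eribulin for 72 h and then 48 h of recovery. PAC1 cells had 100 nM paclitaxel for 72 h and then a recovery whose length the labels leave out. All cells were grown in DMEM/F12 medium and carried lentiviral lineage barcodes, synthetic sequences inserted into the genome and inherited by daughter cells. Each drug has 1 library of run 2, in which cells of 3 successive rounds were marked with hashtag oligos and pooled. The hashtag was GGAGAAGA for ERI1 and GCACACGC for PAC1. The drugs therefore differ in agent, dose, library and perhaps recovery time, and these cannot be told apart. With 1 library per drug and cells that are not replicates of a treatment, no test was made. Shares stand with exact Clopper-Pearson 95% intervals in parentheses, which cover counting error only.

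Eribulin and paclitaxel both act on microtubules, the filaments that build the mitotic spindle. Eribulin binds the growing ends of microtubules and stops them from lengthening, while paclitaxel binds along the filament and prevents it from coming apart. Dividing cells held by either drug can arrest in mitosis, die, or leave mitosis without dividing. Lineage barcodes show which of the starting families of cells are present after such a treatment, and in which transcriptional state.

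A lineage barcode of this library joins a 14-base part and a 30-base part through a 4-base linker, 48 bases in all. The sequences below belong to the barcodes on which the results turn and were read from the deposited feature list. Capitals mark the 14-base and 30-base parts and lower case the linker. The first 4 were the most frequent under one drug or both, the next 3 showed different clusters under paclitaxel, and the last 3 lay mostly in cluster 9.
bc14-6-bc30-93034: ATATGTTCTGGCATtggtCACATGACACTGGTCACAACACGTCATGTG
bc14-76-bc30-49517: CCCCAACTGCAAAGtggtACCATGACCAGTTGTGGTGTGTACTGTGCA
bc14-21-bc30-28628: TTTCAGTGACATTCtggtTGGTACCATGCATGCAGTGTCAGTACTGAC
bc14-39-bc30-41529: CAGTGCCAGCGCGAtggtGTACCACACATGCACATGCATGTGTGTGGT
bc14-36-bc30-56638: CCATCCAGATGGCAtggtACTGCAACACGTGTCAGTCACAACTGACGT
bc14-18-bc30-28871: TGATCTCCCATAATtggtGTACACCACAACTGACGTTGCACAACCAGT
bc14-92-bc30-83570: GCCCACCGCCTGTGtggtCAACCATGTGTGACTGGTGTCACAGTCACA
bc14-18-bc30-67263: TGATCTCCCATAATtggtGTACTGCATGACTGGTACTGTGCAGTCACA
bc14-65-bc30-62538: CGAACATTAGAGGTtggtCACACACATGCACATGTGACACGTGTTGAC
bc14-4-bc30-67693: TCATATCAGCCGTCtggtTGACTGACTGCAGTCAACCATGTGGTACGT

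These 10 sequences are far apart, and the closest pair differs at 14 positions. That pair is bc14-18-bc30-28871 and bc14-18-bc30-67263, which have the same 14-base part and different 30-base parts. A shared first number in 2 names thus marks a shared 14-base part and not a shared lineage.

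The libraries had different depth, which bears on each value that follows. The median cell had 17297 UMIs (counted RNA molecules) in ERI1, with a 95% interval of 16794 to 17915, and 11674 (11452 to 11941) in PAC1. The medians were 3864 and 3157.5 genes per cell. In 68.1% of random pairs of cells the ERI1 cell had more UMIs. Hashtag counts were also higher in ERI1, with medians of 723 and 452 per cell. The libraries shared 16 of their 6198 and 6568 cell barcodes, and ERI1 and PAC1 shared 2.

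After 1 round the cells of the 2 drugs lay in different clusters of the authors' joint clustering. Eribulin left nearly all cells in a single cluster, while paclitaxel left cells in 6 clusters that each held at least 5% of them. The effective number of clusters, which is the inverse of the chance that 2 random cells share one, was 1.21 in ERI1 and 4.07 in PAC1. Summed over the 14 clusters, the smaller of both shares came to 12.0%, so that much of the distributions overlapped.

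Cluster 7 held 1691 of 1865 ERI1 cells, 90.7% (89.3 to 92.0), and 160 of 2928 PAC1 cells, 5.46% (4.67 to 6.35). Cluster 6 held 0.965% (0.573 to 1.52) of ERI1 and 41.5% (39.7 to 43.3) of PAC1. Cluster 9 held 9 ERI1 cells, 0.483% (0.221 to 0.914), and 662 PAC1 cells, 22.6% (21.1 to 24.2). These 3 clusters account for most of the separation, and their intervals do not overlap between the drugs. In cells of a UMI range common to both (8785 to 25074), cluster 7 held 93.8% of ERI1 and 4.78% of PAC1, with medians of 15499 and 12797 UMIs left there. Among cells with a listed barcode, the base used for lineages further on, cluster 9 held 0.442% (0.163 to 0.961) of ERI1 and 7.77% (6.35 to 9.39) of PAC1.

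Most of the smaller clusters also held a higher share of PAC1 than of ERI1 after this 1 round. Cluster 2 held 0.483% (0.221 to 0.914) of ERI1 and 9.22% (8.197 to 10.3) of PAC1. Cluster 1 held 1.23% (0.783 to 1.84) and 7.27% (6.36 to 8.28), and cluster 8 held 0.858% (0.491 to 1.39) and 6.93% (6.04 to 7.91). Cluster 11 went the other way, with 2.31% (1.67 to 3.09) of ERI1 and 0.546% (0.313 to 0.886) of PAC1. No ERI1 cell fell in cluster 3, which allows a share of up to 0.161%, and 14 PAC1 cells did.

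**Figure D1:**
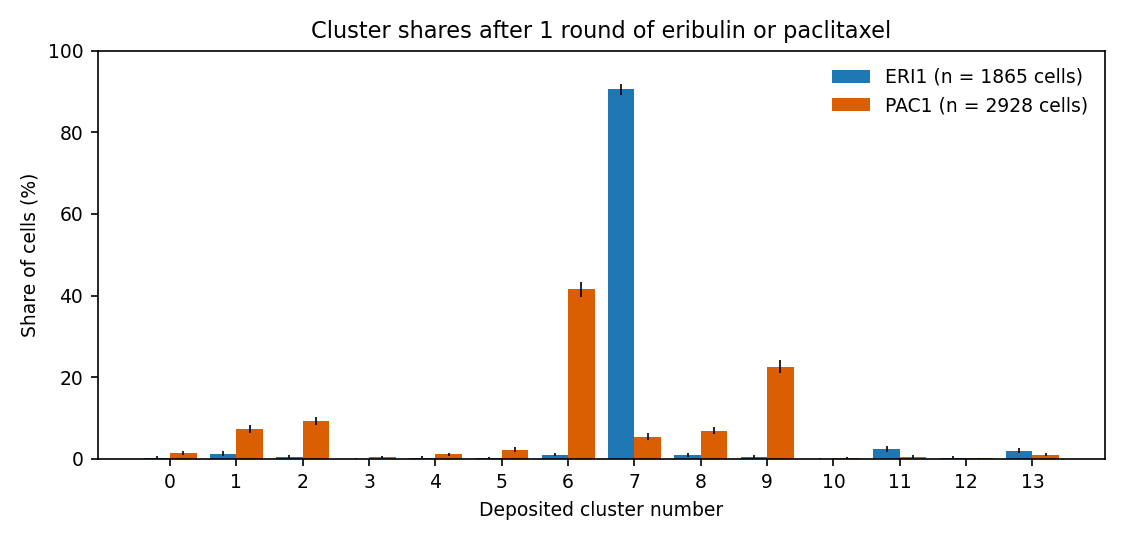
Share of ERI1 cells (blue) and PAC1 cells (orange) in each deposited cluster, in percent; the bars start at 0 and the lines are exact 95% intervals for counting error. ERI1 has a single tall bar at cluster 7 with 90.7%, while PAC1 is spread with 41.5% in cluster 6 and 22.6% in cluster 9.

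The authors clustered all libraries jointly, so a cluster that comes mostly from 1 library can reflect the library as well as the state of its cells. These cannot be told apart here. The PAC1 cells in cluster 7 had a median depth of 10929 UMIs, against 17424 in the ERI1 cells of the same cluster. Among the 30 nearest neighbours of each of them in the authors' UMAP, taken from both conditions, 36.6% were ERI1 cells on average. Over all PAC1 cells the value was 5.70%, and over all ERI1 cells 9.18% of the neighbours were PAC1 cells, which make up 61.1% of the 4793. The PAC1 cells of cluster 7 thus had more ERI1 neighbours than PAC1 cells had on average. Still, 63.4% of their neighbours were PAC1 cells, but a neighbour could lie in any cluster. Whether the conditions were apart inside cluster 7, with its 1691 ERI1 and 160 PAC1 cells, was therefore not tested. PAC1 cells as a whole lay mostly among themselves.

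Phase scores and mitochondrial content differed far less than the clusters. Each cell was given the phase of its higher deposited score, or G1 where neither score was above 0. By this rule 24.8% (22.9 to 26.9) of ERI1 and 23.7% (22.2 to 25.3) of PAC1 were in S. G2M held 42.0% (39.7 to 44.3) of ERI1 and 39.1% (37.3 to 40.9) of PAC1, and G1 held 33.2% (31.1 to 35.4) and 37.2% (35.5 to 39.0). The S and G2M intervals overlap, and the G1 intervals are separated by a narrow gap. In the common UMI range G2M held 42.9% of ERI1 and 43.9% of PAC1, so the order of the drugs was not kept. Phase calls from scores do not show by themselves that cells were cycling, and the part of free RNA in them was not tested.

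Inside cluster 7 the G2M shares of the drugs were less alike, and phases also differed between clusters. In cluster 7, G2M held 42.9% (40.6 to 45.3) of the ERI1 cells and 27.5% (20.7 to 35.1) of the PAC1 cells. S was alike there, with 25.9% (23.8 to 28.1) and 26.3% (19.6 to 33.8). The part of depth in the G2M difference was not tested. In cluster 1 the G2M intervals of the drugs overlapped, with 34.5 to 76.8 in ERI1 and 36.0 to 49.7 in PAC1. In cluster 9 of PAC1, S held 17.1% (14.3 to 20.2) of cells, compared with 26.3% (23.9 to 28.9) in cluster 6. Cluster 11 of ERI1 was 93.02% G1, with 43 cells and a median of 35242 UMIs.

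The median share of UMIs in mitochondrial genes was 3.05% in ERI1 and 2.88% in PAC1. A share above 10% was found in 43 ERI1 cells, 2.31% (1.67 to 3.09), and in 41 PAC1 cells, 1.40% (1.01 to 1.89). Of these, 36 and 31 were all the cells of cluster 13, which had median mitochondrial shares of 77.7% and 71.9% and medians of 842.5 and 833 UMIs. Cluster 4 stood at the other end, with medians of 69666.5 UMIs in 6 ERI1 cells and 51544.5 in 32 PAC1 cells and a median of 4 detected lineage barcodes in both. The part of droplets with more than 1 cell in this was not tested.

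Pseudotime, the authors' ordering of cells by distance from untreated cells, was later in PAC1. The median was 13.6 in ERI1, with quartiles of 13.3 and 13.97, and 17.7 in PAC1, with quartiles of 14.9 and 20.6. In 79.6% of random pairs the PAC1 cell was later. ERI1 was narrow, with 76.2% (74.2 to 78.1) of cells between 13 and 15. PAC1 had 13.01% (11.8 to 14.3) of its cells there, 73.2% (71.5 to 74.8) above 15 and 13.8% (12.6 to 15.1) below 13. ERI1 had 15.6% (13.98 to 17.3) below 13 too, but 1 cell below 10, where PAC1 had 164, 5.601% (4.80 to 6.496).

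**Figure D2:**
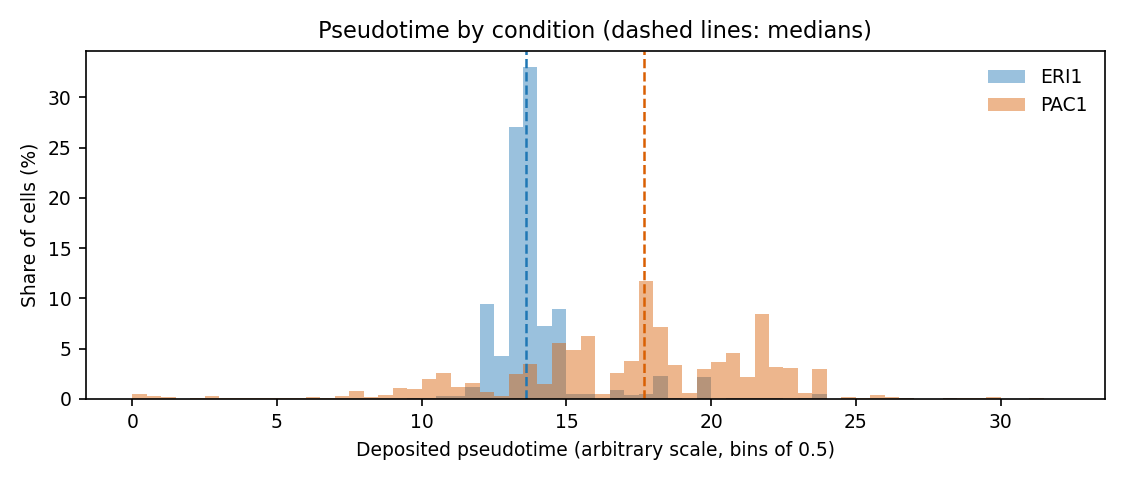
Share of cells (percent) by deposited pseudotime (arbitrary scale, bins of 0.5) in ERI1 (blue) and PAC1 (orange), with medians as dashed lines. ERI1 forms a single narrow peak around its median of 13.6, while PAC1 is wide, with a median of 17.7 and 5.601% of cells below 10.

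Part of the narrowness of ERI1 is shared values: 275 of its cells, 14.7%, have the same pseudotime of 13.5933, which is also its median. The largest such group in PAC1 was 84 cells, 2.87%. The difference between the medians, 4.08, went with the clusters. In cluster 7 the medians were 13.6 in ERI1 and 13.8 in PAC1. In cluster 1 they were 13.7 and 11.7, so there ERI1 was later. In cluster 13 they were equal at 19.6. No other cluster had at least 20 cells of each drug, and these 3 held 93.8% of ERI1 but 13.8% of PAC1. The mean difference within them, PAC1 minus ERI1, was -0.60 with equal weights and -0.076 weighted by cell number, and its sign comes from cluster 1 alone, with 23 ERI1 cells.

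Lineage barcodes were called in both libraries, but the calls are not of 1 kind. A single barcode was called in 1356 ERI1 cells, 72.7% (70.6 to 74.7), and in 1792 PAC1 cells, 61.2% (59.4 to 63.0). No barcode was detected in 10.8% (9.41 to 12.3) of ERI1 and 22.7% (21.2 to 24.2) of PAC1, and the median barcode count per cell was 12 and 5. The deposited feature list for run 2 names 185 lineage barcodes. All 132 barcodes called in ERI1 are in it. Of the 141 called in PAC1, 73 are in it and 68 are not, and these 68 mark 531 cells, 29.6% of the barcoded PAC1 cells. How the list was made, and whether calls in the eribulin library were limited to it, is not given in the sources used here. The absence of an unlisted barcode from ERI1 can therefore not be read as absence from the cells, and shares were compared among listed barcodes only, over 1356 ERI1 and 1261 PAC1 cells.

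Whether the drugs left different numbers of lineages cannot be told from these calls. Over all barcodes the numbers were alike, with 132 in ERI1 and an expected 134 in 1356 PAC1 cells. Among listed barcodes ERI1 had 132 and PAC1 had 73, with 68 in common. The list holds every ERI1 barcode and only some of PAC1, however, so it lowers the number of PAC1 alone. The shared 68 marked 82.0% of ERI1 and 95.5% of PAC1 cells with a listed barcode, but 67.2% of all barcoded PAC1 cells. The 10 most frequent listed barcodes held 46.7% of cells with a listed barcode in ERI1 and 59.5% in PAC1. The effective number of listed barcodes was 33.6 and 13.8. Over all barcodes the effective numbers were 33.6 and 24.8 and the 10 most frequent held 46.7% and 46.2%, so on that base PAC1 was the more concentrated by the first measure and close to ERI1 by the other.

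The most frequent barcode was the same under both drugs. Barcode bc14-6-bc30-93034 marked 104 ERI1 cells, 7.67% (6.31 to 9.22) of those with a listed barcode, and 259 PAC1 cells, 20.5% (18.3 to 22.9). Barcode bc14-76-bc30-49517 marked 57 ERI1 cells, 4.20% (3.199 to 5.41), and 164 PAC1 cells, 13.01% (11.2 to 14.99). Both shares were higher under paclitaxel, 2.68-fold (2.13 to 3.40) and 3.09-fold (2.28 to 4.26). The size of these ratios depends on the base. Over all barcoded PAC1 cells the shares were 14.5% and 9.15%, lower than among listed barcodes but still above those of ERI1. The other leading barcodes of ERI1 had lower shares in PAC1. Barcode bc14-21-bc30-28628 marked 100 ERI1 cells, 7.37% (6.04 to 8.90), and 11 PAC1 cells, 0.872% (0.436 to 1.56). Barcode bc14-39-bc30-41529 marked 86 ERI1 cells, 6.34% (5.10 to 7.77), and 22 PAC1 cells, 1.74% (1.10 to 2.63). Barcode bc14-55-bc30-99383 marked 60 and 25 cells, 4.42% (3.39 to 5.66) and 1.98% (1.29 to 2.91).

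Of 32 listed barcodes with at least 20 called cells over both drugs, 7 (21.9%) had a share at least 3-fold higher in PAC1 and 7 (21.9%) a share at least 3-fold higher in ERI1. The other 18 were within 3-fold. Over all 38 barcodes of that size, and with all barcoded cells as the base, 10 (26.3%) were at least 3-fold higher in PAC1 and 11 (28.9%) in ERI1, but 6 of the former are outside the list.

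The largest listed ratio towards paclitaxel was that of bc14-33-bc30-33994, which marked 33 PAC1 cells and no ERI1 cell and was thus at least 11.8-fold higher when 3 cells stand for the count of 0. Its absence from ERI1 was not an absence from the eribulin library, since 14 ERI2 cells carried it. Barcodes bc14-29-bc30-33048 (5 ERI1 and 31 PAC1 cells) and bc14-13-bc30-74188 (6 and 37 cells) were 6.67-fold (2.57 to 22.0) and 6.63-fold (2.77 to 19.2) higher in PAC1. Barcode bc14-21-bc30-67560 (8 and 38 cells) was 5.11-fold (2.35 to 12.7) and bc14-71-bc30-66188 (5 and 17 cells) 3.66-fold (1.29 to 12.7) higher.

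Towards eribulin, bc14-40-bc30-97696 marked 41 ERI1 and 3 PAC1 cells, a ratio of 12.7 (4.05 to 64.2), and bc14-55-bc30-37135 marked 26 and 2, a ratio of 12.1 (3.03 to 105.1). Barcode bc14-21-bc30-28628 followed with 8.45-fold (4.53 to 17.5). Barcodes bc14-61-bc30-63448 (24 and 3 cells) and bc14-16-bc30-28768 (31 and 4 cells) had ratios of 7.44 (2.26 to 38.6) and 7.21 (2.55 to 28.1). Summed over the listed barcodes, the smaller of both shares came to 49.1%, and over all barcodes to 42.4%. Both values were above the 12.0% of the clusters, which was taken over all cells and not over barcoded ones alone.

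**Figure D3:**
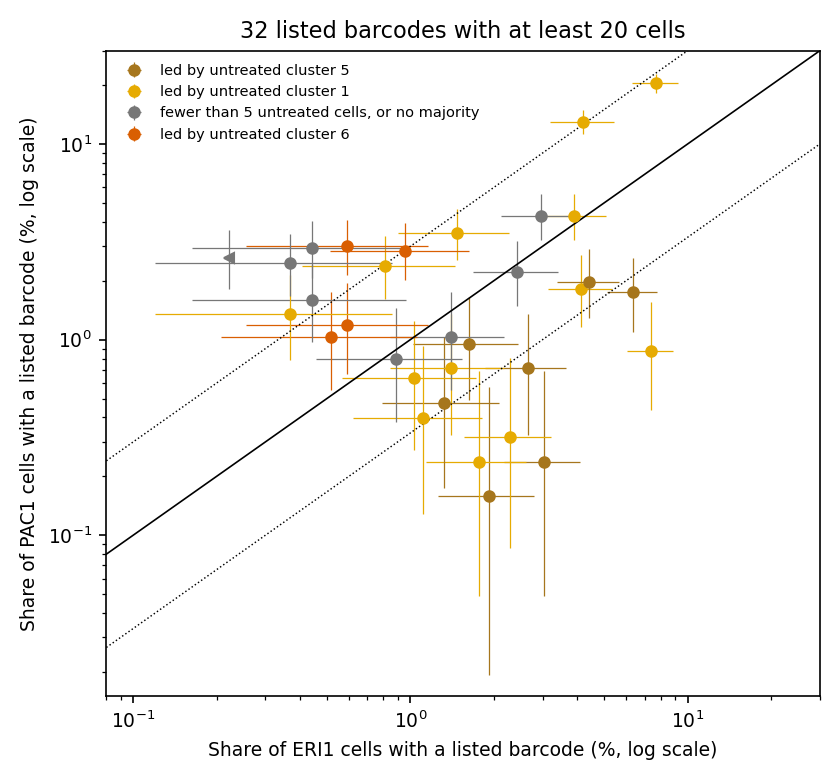
Share of cells with a listed barcode (percent, log scales) in ERI1 (horizontal) and PAC1 (vertical) for the 32 listed barcodes with at least 20 called cells, with exact 95% intervals; the solid line is equality, the dotted lines are 3-fold and the triangle is the barcode with 0 ERI1 cells, drawn at the share of 3 cells. Colours give the untreated cluster that holds most of a barcode's untreated cells. Barcodes led by untreated cluster 5 (brown) all lie below the solid line and those led by cluster 6 (orange) all above it.

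The untreated state of a lineage went with its share under each drug. Listed barcodes with at least 5 called untreated cells (run 1) were grouped by the cluster that held most of these cells. The untreated cells come from another run, so they serve only to group barcodes. The 31 barcodes led by untreated cluster 5 held 28.3% (25.9 to 30.8) of listed ERI1 cells and 8.72% (7.22 to 10.4) of listed PAC1 cells. The 9 led by cluster 6 held 3.39% (2.49 to 4.50) and 11.4% (9.72 to 13.3). The 58 led by cluster 1 held 48.3% (45.6 to 51.0) and 56.6% (53.8 to 59.4). Among barcodes with at least 20 cells, 7 of 7 led by cluster 5 had the higher share in ERI1, by 1.70-fold to 12.7-fold. The 4 of 4 led by cluster 6 had the higher share in PAC1, and those led by cluster 1 were split, 7 towards ERI1 and 6 towards PAC1. Over all 32 barcodes, 17 had the higher share in ERI1 and 15 in PAC1. With at least 10 untreated cells per barcode, those led by cluster 1 held 34.7% and 34.3% of listed cells, so their order turned.

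The clusters of these groups of barcodes were further apart after paclitaxel than after eribulin. In ERI1, cluster 7 held 90.7% (88.2 to 92.8) of cells whose barcode was led by untreated cluster 1, 94.3% (91.5 to 96.4) of those led by cluster 5 and 93.5% (82.1 to 98.6) of those led by cluster 6. The few cells elsewhere included 17 of 655 in cluster 1, 2.60% (1.52 to 4.12), for barcodes led by cluster 1, and 0 of 384 for those led by cluster 5, which allows up to 0.781%. Of those 17 cells, bc14-36-bc30-56638 gave 10 and bc14-21-bc30-28628 gave 4. In PAC1, cells of barcodes led by cluster 6 were in cluster 6 in 131 of 144 cases, 91.0% (85.1 to 95.1). Those led by cluster 5 were divided between cluster 6, with 52.7% (43.0 to 62.3), and cluster 5, with 25.5% (17.6 to 34.6). Those led by cluster 1 were spread further. Cluster 6 held 31.9% (28.5 to 35.5) of them and cluster 8 held 18.5% (15.7 to 21.5). Another 17.1% (14.4 to 20.1) were in cluster 2, and 14.4% (11.9 to 17.2) had the cluster of their untreated relatives. Single barcodes carried much of this spread. Barcode bc14-6-bc30-93034 gave 113 of the 132 cells in cluster 8, and bc14-76-bc30-49517 gave 92 of the 122 in cluster 2. With at least 10 untreated cells per barcode, cluster 8 held 27.8% and cluster 2 held 4.17% of these PAC1 cells. Lineages of different untreated states were thus mostly in cluster 7 after eribulin and in several clusters after paclitaxel.

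The difference in cluster 7 was as large within lineages as over all cells, with a mean of -85.6 percentage points (PAC1 minus ERI1) against -85.2. Among the barcodes seen under both drugs, 15 had at least 10 called cells under each, 686 ERI1 and 785 PAC1 cells in all. Barcodes of 1 library are not replicates of a treatment, and a lineage that took up several barcodes can stand behind more than 1 of them. The mean share of cluster 7 over the 15 was 93.5% ± 6.22 (SD, n = 15 barcodes) in ERI1, from 77.4% to 100%, and 7.87% ± 5.93 in PAC1, from 0% to 20%. It was lower in PAC1 for 15 of 15, and the ranges do not overlap. Cluster 6 held 0.673% ± 2.34 in ERI1 and 43.1% ± 23.5 in PAC1, from 10% to 94.4%, and was higher in PAC1 for 15 of 15.

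Under eribulin the leading cluster was cluster 7 for each of the 15 barcodes. Under paclitaxel it was cluster 6 for 8, cluster 1 for 3, and cluster 2 and cluster 8 for 2 each, with ties given to the lower number. Of the 3 given to cluster 1, 2 were such ties. Barcode bc14-21-bc30-28628 had 3 of 11 PAC1 cells in each of clusters 1 and 6. Barcode bc14-29-bc30-67687 had 2 of 10 in each of clusters 1, 7 and 11. The lineages thus shared a cluster under eribulin and were led by different clusters under paclitaxel.

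**Figure D4:**
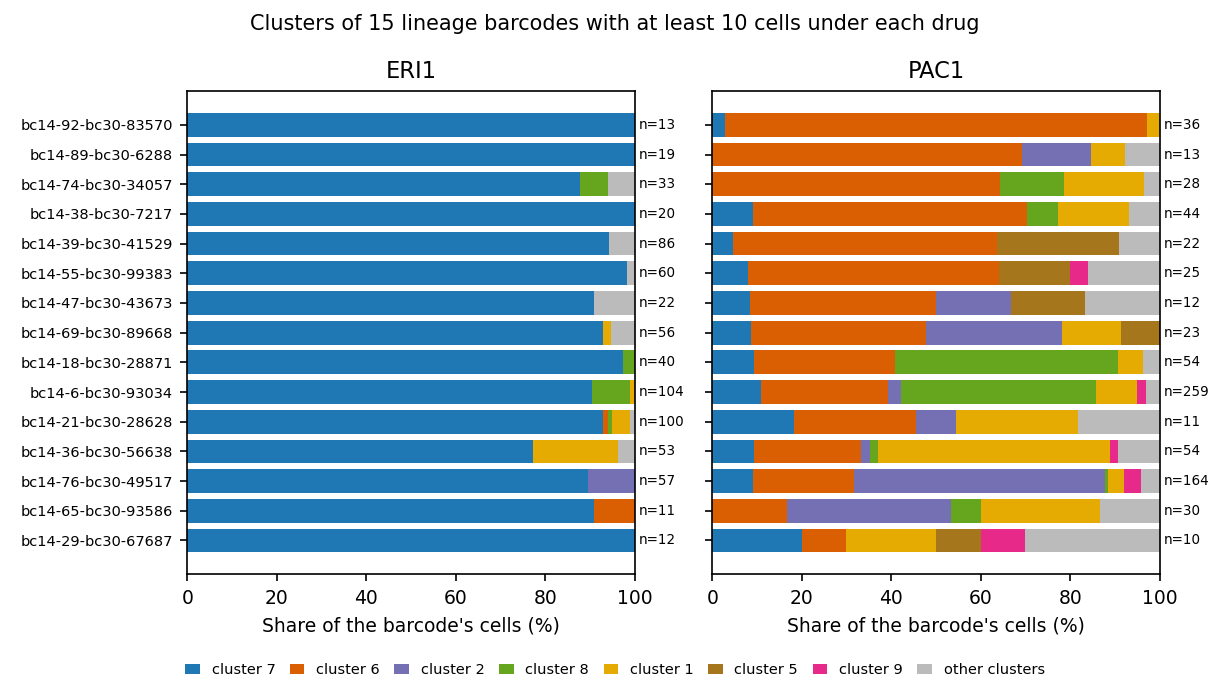
Clusters of the cells of each of 15 lineage barcodes with at least 10 called cells under each drug, as shares of the barcode's cells (percent), for ERI1 (left) and PAC1 (right), with the number of cells beside each bar. On the left every bar is mostly cluster 7, at 77.4% or more; on the right cluster 7 reaches 20% at most and the bars differ from each other.

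Barcode bc14-92-bc30-83570 had the highest share of cluster 6 under paclitaxel. Its 13 ERI1 cells were all in cluster 7, and of its 36 PAC1 cells 94.4% (81.3 to 99.3) were in cluster 6. In untreated cells it lay in cluster 6 too, with 65 of 80 cells. Barcode bc14-29-bc30-67687 had the lowest share of cluster 6, 10% of 10 PAC1 cells, and the highest shares of cluster 7 with 20% and of cluster 9 with 10%, so these rest on 1 or 2 cells.

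The 2 barcodes most frequent in PAC1 were led there by clusters 8 and 2, each of which led only 1 other of the 15. Barcode bc14-6-bc30-93034 had 90.4% (83.0 to 95.3) of 104 ERI1 cells in cluster 7. Of its 259 PAC1 cells, 43.6% (37.5 to 49.9) were in cluster 8 and 28.6% (23.1 to 34.5) in cluster 6. Barcode bc14-18-bc30-28871 had a like split in PAC1, with 50.0% (36.1 to 63.9) of 54 cells in cluster 8 and 31.5% (19.5 to 45.6) in cluster 6. Barcode bc14-76-bc30-49517 had 89.5% (78.5 to 96.0) of 57 ERI1 cells in cluster 7, and 56.1% (48.2 to 63.8) of 164 PAC1 cells in cluster 2. The few ERI1 cells of these lineages outside cluster 7 lay in the same clusters. In ERI1, 9 of the 10 such cells of bc14-6-bc30-93034 were in cluster 8, and all 6 of bc14-76-bc30-49517 were in cluster 2.

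Barcode bc14-36-bc30-56638 was led by cluster 1 in PAC1. It had the lowest share of cluster 7 in ERI1, 77.4% (63.8 to 87.7) of 53 cells, with 18.9% (9.44 to 31.97) in cluster 1. In PAC1, 51.9% (37.8 to 65.7) of its 54 cells were in cluster 1, the cluster of 17 of its 18 untreated cells. Barcode bc14-39-bc30-41529 had 94.2% (86.95 to 98.1) of 86 ERI1 cells in cluster 7 and 59.1% (36.4 to 79.3) of 22 PAC1 cells in cluster 6.

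Within lineages too, pseudotime was mostly later in PAC1. The medians per barcode averaged 13.7 ± 0.56 (SD, n = 15 barcodes) in ERI1, from 13.0045 to 14.97, and 16.6 ± 1.90 in PAC1, from 13.6 to 20.4. The mean difference was 2.89 ± 1.78, and PAC1 was later for 14 of 15. The exception was bc14-36-bc30-56638, with 13.7 in ERI1 and 13.6 in PAC1. The latest median in both drugs belonged to bc14-76-bc30-49517, with 14.97 and 20.4.

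Depth differed within the same lineages, and the phases did not keep a direction. Median UMIs were higher in ERI1 for 15 of 15 barcodes, with means of 17692.5 and 12407, and genes per cell for 14 of 15. The mitochondrial median was higher in PAC1 for 8 and in ERI1 for 7. The share in S was higher in PAC1 for 7 and in ERI1 for 8, the share in G2M for 6 and 9, and the share in G1 for 10 and 5. The mean share in G1 was 28.6% ± 11.6 in ERI1 and 36.0% ± 6.08 in PAC1, where SD is the spread between barcodes.

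Most barcoded PAC1 cells of cluster 9 had a barcode outside the run 2 list. Of 437 barcoded PAC1 cells in cluster 9, 372, or 85.1% (81.4 to 88.3), had a barcode that was not called in any ERI1 cell, and 339, or 77.6% (73.4 to 81.4), had a barcode outside the list. Of the 98 with a listed barcode, 65 had one that was also called in ERI1 and 33 had not. Cluster 9 held 63.8% (59.6 to 67.9) of PAC1 cells with an unlisted barcode and 5.40% (4.19 to 6.83) of those whose barcode was also called in ERI1. It held 12.7% (10.2 to 15.4) of PAC1 cells with no detected barcode.

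The split was by lineage and nearly all or none. Of 47 barcodes with at least 10 PAC1 cells, 12 had most of them in cluster 9, with 87.1% to 100% there, and the other 35 had 10% or less. Of the 12, 9 are outside the list, among them bc14-18-bc30-67263 with 68 of 71 cells in cluster 9, bc14-65-bc30-62538 with 49 of 55 and bc14-4-bc30-67693 with 47 of 52. The other 3 are in the list, namely bc14-33-bc30-33994 with 32 of 33 cells, bc14-29-bc30-33048 with 27 of 31 and bc14-75-bc30-22367 with 10 of 11. Of the 15 unlisted barcodes of this size, 9 thus lay mostly in cluster 9 and 6 had 5% of their cells or less there. Among the listed ones of this size, only the 3 named lay mostly there. The relation between list and cluster was not tested.

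**Figure D5:**
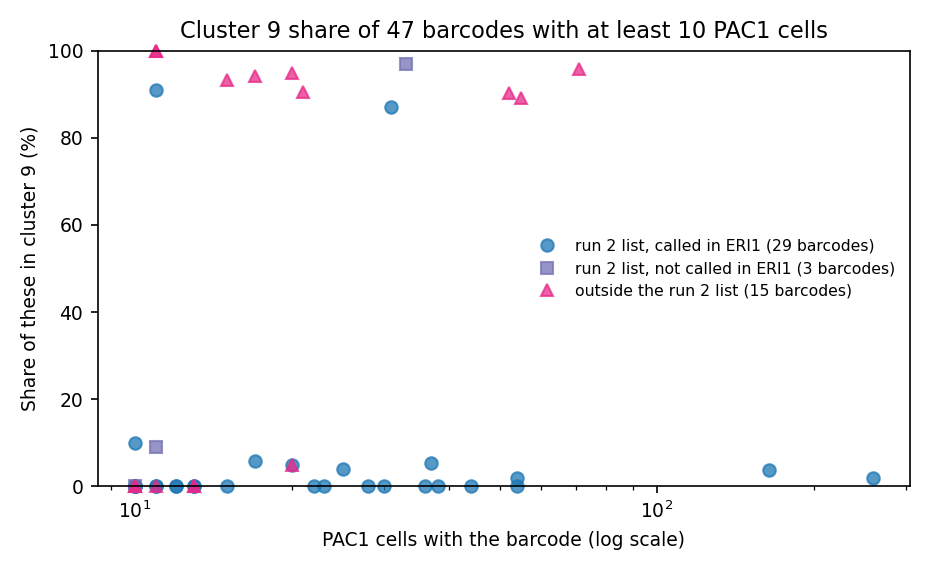
Share of a barcode's PAC1 cells in cluster 9 (percent) against the number of these cells (log scale), for 47 barcodes with at least 10; symbols give whether a barcode is in the run 2 list and was called in ERI1. The points form an upper group of 12 at 87.1% or more and a lower group of 35 at 10% or less, with none between.

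Only a few ERI1 cells came from that group, too few to show where such lineages lay under eribulin. The 12 barcodes had 348 PAC1 cells and 8 ERI1 cells, all of the latter from bc14-29-bc30-33048 and bc14-75-bc30-22367. Of these 8, 6 were in cluster 9 and 2 in cluster 7, while cluster 9 held only 9 ERI1 cells in all. Of the 18 untreated cells with these barcodes 15 were in cluster 9, which held 1.24% of untreated cells. The barcodes were chosen by their PAC1 cells, 4 of the 12 had no untreated cell, and the single untreated cell of bc14-29-bc30-33048 was in cluster 1. How many eribulin-treated cells carried the 9 unlisted barcodes cannot be told from these calls.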

How the data were processed

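A table of 1 row per cell, UMAP coordinates and barcode sequence lists, all made by the authors, were analysed; no gene expression matrix was used here. Per the submitters' processing notes and the series' design text, Cell Ranger 4.0.0 with the mm10 reference produced the run 2 data, and Seurat 3.1.4 served for filtering and clustering. The deposited counts (UMIs, genes, barcode counts and hashtag counts per cell) are unnormalized. The deposited percent values give the part of each cell's UMIs that came from mitochondrial genes. The deposited phase scores and pseudotime are scores on arbitrary scales, and the design text roots pseudotime at untreated cells. How conditions were assigned from hashtags and how barcodes were called is not given in the sources used here.

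From these, shares with exact 95% intervals, medians, shares of random pairs, expected barcode numbers in equal draws (exact formula) and nearest neighbours in the UMAP were computed with Python 3.11.15, pandas 2.3.3, SciPy 1.17.1 and scikit-learn 1.9.0, after the functions had been tested on simulated data. Cells outside the stated filter (under 200 genes or over 50% mitochondrial), 26 in ERI1 and 19 in PAC1, were kept, and no doublet caller was run. The latest of the 3 deposited barcode calls was used. Named barcodes are the 5 most frequent per drug, the 5 largest ratios in each direction, and, among barcodes with at least 10 cells under each drug, those with the highest or lowest share of clusters 6, 7 and 9 in PAC1. Barcodes that tied for the lowest share of cluster 7 or 9 were not named on that ground. Others were picked after their values were seen. The cells, barcodes and rules were chosen with earlier results of these data known, and the restriction to listed barcodes was added after the lists had been examined. Depth could not be equalised by thinning, so a window of 8785 to 25074 UMIs common to both conditions was tried instead; the closing section gives this and the other settings.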

Additional observations from a re-analysis of the deposited data

Results flagged for a closer look

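The same contrast after 3 rounds, PAC3 against ERI3 from the same libraries, gave 10 of 20 quantities with the opposite sign. None of these differences was tested, since each condition is 1 pool of cells. Each value is paclitaxel minus eribulin. The median UMIs per cell differed by -5623 after 1 round and 1509 after 3, and the median genes per cell by -706.5 and 326. Median pseudotime differed by 4.08 and -0.89. The share in G2M differed by -2.91 and 3.46 percentage points. Cluster 2 differed by 8.74 and -8.87 points, and cluster 8 by 6.08 and -16.5 points. Clusters 3, 5, 10 and 13 were small and differed by 0.478 and -6.42, 2.06 and -0.358, 0.137 and -0.163, and -0.872 and 0.871 points. Cluster 9 kept its direction, with 22.1 and 37.9 points. Cluster 7 differed by -85.2 points after 1 round and by -2.38 points after 3, where it held 3.32% of ERI3 and 0.931% of PAC3. PAC3 differs from PAC1 in paclitaxel dose as well as in the number of rounds.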

How the results depend on the processing

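Of 226 recomputed values, 172 stayed within their limit. The limit was the interval or spread of the main value, or a fixed fold of it for numbers of barcodes. No paired analysis was possible because each drug has 1 library. Cluster 7 of ERI1 was 93.8% in the common UMI window, 92.4% at up to 10% mitochondrial UMIs, 92.3% at 1000 or more genes, 91.96% in cells with a called barcode (all of them listed), 85.1% in G1 cells and 92.8% without clusters 4 and 13. Cluster 7 of PAC1 was 6.79% in G1 cells and 6.66% in cells with a listed barcode. Cluster 6 of PAC1 was 46.04% in the window, 36.3% with a called barcode, 35.2% in G1 cells and 43.4% with a listed barcode. Cluster 9 of PAC1 was 19.1%, 24.4%, 26.3% and 7.77% in the same order.

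In the window, median pseudotime was 13.58 in ERI1 and 17.4 in PAC1, a difference of 3.84; in G1 cells PAC1 had 17.985 and the difference was 4.39. Its mean within clusters was -0.60 (equal weights) and -0.076 (weighted); the sign comes from cluster 1 alone (-1.98, 23 ERI1 cells), with 0.18 in cluster 7 and 0 in cluster 13. S was 27.5% in ERI1 and 26.5% in PAC1 in the window, and G2M of PAC1 43.9%. With a phase limit of 0.1, S was 14.1% and 11.2%, and G2M 33.03% and 29.3%. Median mitochondrial shares in G1 cells were 3.22% and 3.02%. Median UMIs of ERI1 and PAC1 were 15499 and 12797 in the window, 15789 and 10200.5 in G1 cells, and 16628 and 11419 without Doublet and Multiplet calls. Listed barcodes gave 73 barcodes in PAC1. With at least 10 untreated cells, barcodes led by cluster 1 held 34.7% of listed ERI1 and 34.3% of listed PAC1 cells, so their order turned. Over the shared barcodes, cluster 6 of PAC1 ran from 37.6% to 52.0%, and the mean ratio of UMIs was 1.43, or 1.19 in the window.

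In PAC1 22.7% of cells had no barcode detected and enter no barcode value. With 1 library per drug, the spread between cultures is unknown.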
